A study of Mus musculus with 4 samples.

Results

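Cytosolic ribosomal protein genes were followed in sorted erythroid cells of the mouse fetal liver. They were taken as the rows of the gene table whose symbols begin with Rpl or Rps and a digit, together with Rpsa, Rplp0, Rplp1 and Rplp2, leaving out the S6 kinase genes (Rps6k). The rule found 83 genes of 10716, of which 49 were named for the large and 34 for the small ribosomal subunit. Of these, 76 were genes of the standard ribosomal proteins (45 large, 31 small), called core genes here. The other 7 were 6 genes named as paralogues (Rpl22l1, Rpl7l1, Rpl36al, Rpl39l, Rps27l and Rps4y2) and Rps19bp1, whose symbol matches the rule but whose product binds a ribosomal protein and is not itself a subunit protein.

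The comparison was between 2 libraries labelled as Adar knockout, given the genotype Epor-Adar / +, and 2 libraries labelled wild type. All 4 came from C57BL/6 embryos at embryonic day 14.5, and all were made from YFP-positive cells sorted by means of the R26eYFP reporter. Adar encodes an enzyme that converts adenosine to inosine in double-stranded RNA, and Cre recombinase driven from the Epor gene acts in the erythroid lineage. The genotype as written does not say whether 1 or both alleles were deleted, and the labels do not say whether the controls carried Cre. They also do not say that each library came from a separate embryo, so every p-value here reflects the spread among 4 libraries, which may be technical. The libraries are named here by their label numbers, knockout 1 and 2 and control 3 and 8.

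Total counts ran from 28356401 to 44016809 per library. Adar stood at 67.1 and 102 CPM (counts scaled to library size after TMM) in knockout 1 and 2 and at 50.9 and 46.9 CPM in control 3 and 8, so whole-gene counts were not lower in the libraries labelled knockout. Counts over 4 Y-linked genes went against the labelled sex in 3 of the 4 libraries. Whether the sex field or the labels of the libraries are wrong was not tested, so the groups are as labelled, and every knockout against control value below rests on those labels. All 10 erythroid marker genes were measured. Together they took 70742.5 and 71626.7 CPM in knockout 1 and 2 and 101475 and 67282.6 CPM in control 3 and 8, so control 3 stood apart.

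A cytosolic ribosome is built from a small subunit, which reads the mRNA, and a large subunit, which forms the peptide bonds. Each ribosomal protein is present in about 1 copy per ribosome, with the stalk proteins as the main exception, and the mRNAs of most of them begin with a run of pyrimidines, the 5′ terminal oligopyrimidine or TOP motif, which places their translation under the kinase complex mTORC1. In red cell precursors, which make very large amounts of globin, loss of 1 copy of any of several ribosomal protein genes causes Diamond-Blackfan anaemia in humans.

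Promoters of the genes that the results turn on are shown first, so that the genes described below can be compared at their start sites. The stretches are from RefSeq on GRCm38.p6, run 5′ to 3′ on the transcript strand, begin 30 bases before the annotated start and hold the first 25 bases from it. Capitals mark the longest run of C and T in each stretch. The first group had the smallest p-values among core genes or a role named below, and the second group are paralogues.

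Rpl5 (chr5:107900498-107900552, plus strand): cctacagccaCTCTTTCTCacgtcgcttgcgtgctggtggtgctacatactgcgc
Rps15a (chr7:118116123-118116177, minus strand): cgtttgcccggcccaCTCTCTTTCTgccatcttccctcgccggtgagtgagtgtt
Rps12 (chr10:23787185-23787239, minus strand): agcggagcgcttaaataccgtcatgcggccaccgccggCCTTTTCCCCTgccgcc
Rps27 (chr3:90213624-90213678, minus strand): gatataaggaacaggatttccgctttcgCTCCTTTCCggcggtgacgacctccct
Rps6 (chr4:86857343-86857397, minus strand): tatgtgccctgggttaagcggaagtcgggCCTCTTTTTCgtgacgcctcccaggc
Rplp2 (chr7:141447621-141447675, plus strand): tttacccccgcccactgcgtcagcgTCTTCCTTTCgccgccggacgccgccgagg

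Rpl22l1 (chr3:28805478-28805532, plus strand): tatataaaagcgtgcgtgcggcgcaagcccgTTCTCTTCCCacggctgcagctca
Rps27l (chr9:66946056-66946110, plus strand, the first of 2 annotated starts): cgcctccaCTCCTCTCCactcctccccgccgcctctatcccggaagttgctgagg
Rpl7l1 (chr17:46782632-46782686, minus strand): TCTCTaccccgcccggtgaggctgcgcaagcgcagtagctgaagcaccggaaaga
Rpl36al (chr12:69184043-69184097, minus strand): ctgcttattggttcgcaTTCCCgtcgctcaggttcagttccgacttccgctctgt

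In these stretches the longest C and T run was 9 to 11 bases in the 6 core genes shown. It was 10 bases in Rpl22l1 and 9 in Rps27l, and 5 in Rpl7l1 and in Rpl36al. Run length did not separate core genes from paralogues, since it was also 5 bases in the core genes Rpl36a and Rpl22 and 9 in the paralogue Rpl39l. Over all core genes found in the RefSeq table (55 genes with 65 start windows), 49.2% of windows held a run of at least 8 C or T in the 55 bases around the start, against 21.7% of all 32851 windows. Of the 7 windows of 6 non-core genes, 42.9% did. These are matches of letters around annotated starts, and where transcripts start in these cells was not measured.

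Ribosomal protein transcripts took a larger share of the counts in knockout 1 than in any other library. The 83 genes held 10.3% of all counts in knockout 1 and 7.64% in knockout 2, against 5.36% in control 3 and 7.38% in control 8. The mean share was 8.995% ± 1.91 (SD, n = 2) in the knockout group and 6.37% ± 1.43 (SD, n = 2) in the control group. The groups did not overlap, but knockout 2 lay just above control 8. On the log2 scale the ratio of the mean shares was 0.50, and it was 0.26 without knockout 1, 0.29 without control 3 and 0.75 without control 8. A 2 against 2 design allows no small exact p-value for a single sum, and none is given. These are shares of sequenced RNA, so fewer cells of a type and less RNA per cell cannot be told apart.

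**Figure D1:**
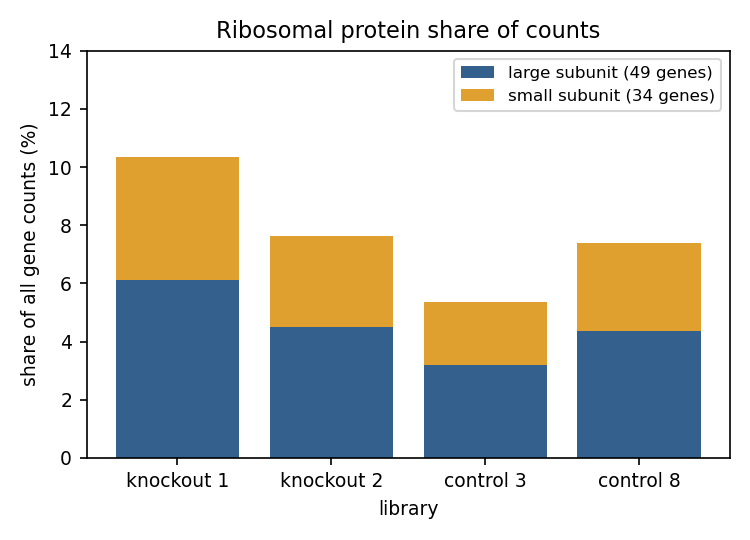
Share of all counts (percent, from 0) held by the cytosolic ribosomal protein genes in each of the 4 libraries, with the large and small subunit genes drawn separately. Knockout 1 was highest at 10.3% and control 3 lowest at 5.36%, with both subunits in the same order.

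Both subunits ranked the libraries alike. Large subunit genes held 6.10% and 4.50% of counts in knockout 1 and 2 and 3.18% and 4.37% in control 3 and 8. Small subunit genes held 4.24% and 3.14% in the knockout libraries and 2.18% and 3.01% in the controls. The ratio of large to small subunit counts was 1.44 and 1.43 in the knockout libraries and 1.46 and 1.45 in the controls, while the share itself varied from 5.36% to 10.3%. The median fitted log2 fold change, knockout over control, was 0.63 for the 49 large subunit genes and 0.56 for the 34 small subunit genes. Their difference was 0.06, and leaving out each library in turn gave 0.01 to 0.06, so a difference between subunits was not resolved from the spread of the libraries.

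Within a library most core genes lay on the same side of the control mean, 75 of 76 above it in knockout 1 and 73 in knockout 2. On the log2 scale, their median against that mean was 0.87 in knockout 1, 0.29 in knockout 2, -0.17 in control 3 and 0.17 in control 8. Single core genes ran from -0.12 to 1.62 in knockout 1 and from -0.43 to 1.32 in knockout 2. The median over all 10716 genes was at most 0.0117 from 0 in each library. Knockout 1 thus stood well above the others, and knockout 2 stood closer to control 8 than to knockout 1. Core large subunit genes had medians of 0.86 and 0.29 in knockout 1 and 2, and core small subunit genes 0.88 and 0.30.

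The ranking of the libraries was shared by most core genes. Knockout 1 was the highest library for 75 of the 76 core genes, where this held for 40.9% of all genes. The full order of knockout 1, knockout 2, control 8 and control 3 was found in 61 of 76 core genes, against 14.7% of all genes. Control 8 exceeded control 3 in 76 of 76 core genes, so a difference of the same kind existed between libraries of 1 group. Both knockout libraries exceeded both controls in 61 of the 76 core genes, a pattern found in 27.4% of all genes. For 14 core genes, among them Rpl3, Rpl8, Rpl11, Rpl41 and Rps2, the groups overlapped, with knockout 2 below control 8 in each.

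**Figure D2:**
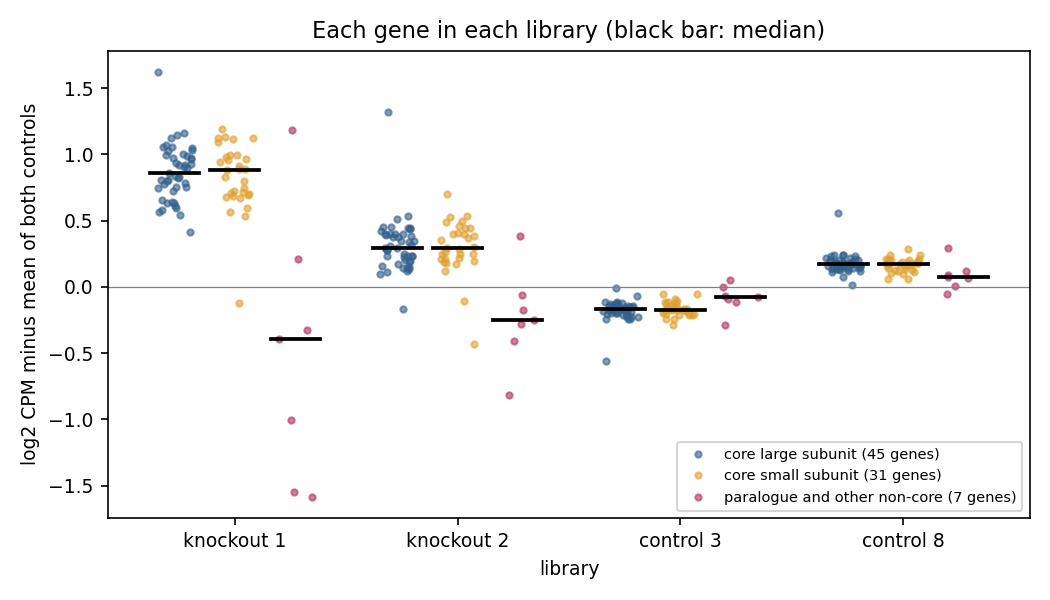
Level of each ribosomal protein gene in each library relative to its control mean (log2 CPM difference, y axis), with core genes and the other members marked separately. Core genes sat high in knockout 1 (median 0.87), near control 8 in knockout 2 (0.29 against 0.17) and low in control 3 (-0.17).

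No ribosomal protein gene passed the test across all genes. At an adjusted p below 0.05 in the edgeR quasi-likelihood test, 0 of the 83 genes were called higher in the knockout libraries, where 0.103% of all genes were, and 0 were called lower, where 0% were. The smallest adjusted p was 0.354, for Rpl5. At an unadjusted p below 0.05, 17 of 83 were higher, or 20.5%, where 9.82% of all genes were. On the same measure 1 was lower (Rpl39l), where 2.08% of all genes were, but Rpl39l is in the table only through its level in the controls and its p-value carries no weight. DESeq2 called 2 genes higher, Rpl5 at an adjusted p of 0.0234 and Rps15a at 0.0459, where it called 3.29% of all genes higher, and 0 lower, where it called 0.196%. The edgeR likelihood ratio test called Rpl5 alone (adjusted p 0.0493, with 3.09% of all genes called higher and 0.168% lower), and limma-voom called 0 in either direction, where it called 0.0747% of all genes higher and 0% lower. At an unadjusted limma-voom p below 0.05 there were 23 of the 83, where 11% of all genes were. By the authors' deposited table, the adjusted p-value was below 0.05 for 0 of the 83, where it was for 0.0747% of all genes, and the smallest was 0.387.

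The fold changes of core genes were alike in size. Of the 76, 75 had a positive fitted log2 fold change, where 50% of all genes did, and the median was 0.62. The middle of the distribution ran from 0.48 (lower quartile) to 0.71 (upper quartile). The SD over genes was 0.21, against 0.72 over all genes. For the mitochondrial ribosomal protein genes and the other TOP genes described below it was 0.30 in each list. The core median was 0.28 without knockout 1, 0.85 without knockout 2, 0.45 without control 3 and 0.77 without control 8. Without knockout 2 the same edgeR test called 24 members higher and 3 lower, where 17.3% of all genes were called higher and 15.3% lower. Those called lower were Rpl7l1, Rps4y2 and Rpl39l, and the last carries no weight, since it is in the table only through the controls. Leaving out any of the other 3 libraries, it called 0 members in either direction. Of all genes these fits called 1.29% higher and 0.0467% lower without knockout 1, 0.373% and 0.00933% without control 3, and 0.233% and 0.0187% without control 8. In each of these fits the lone library of a group is assumed to vary as the other group does.

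**Figure D3:**
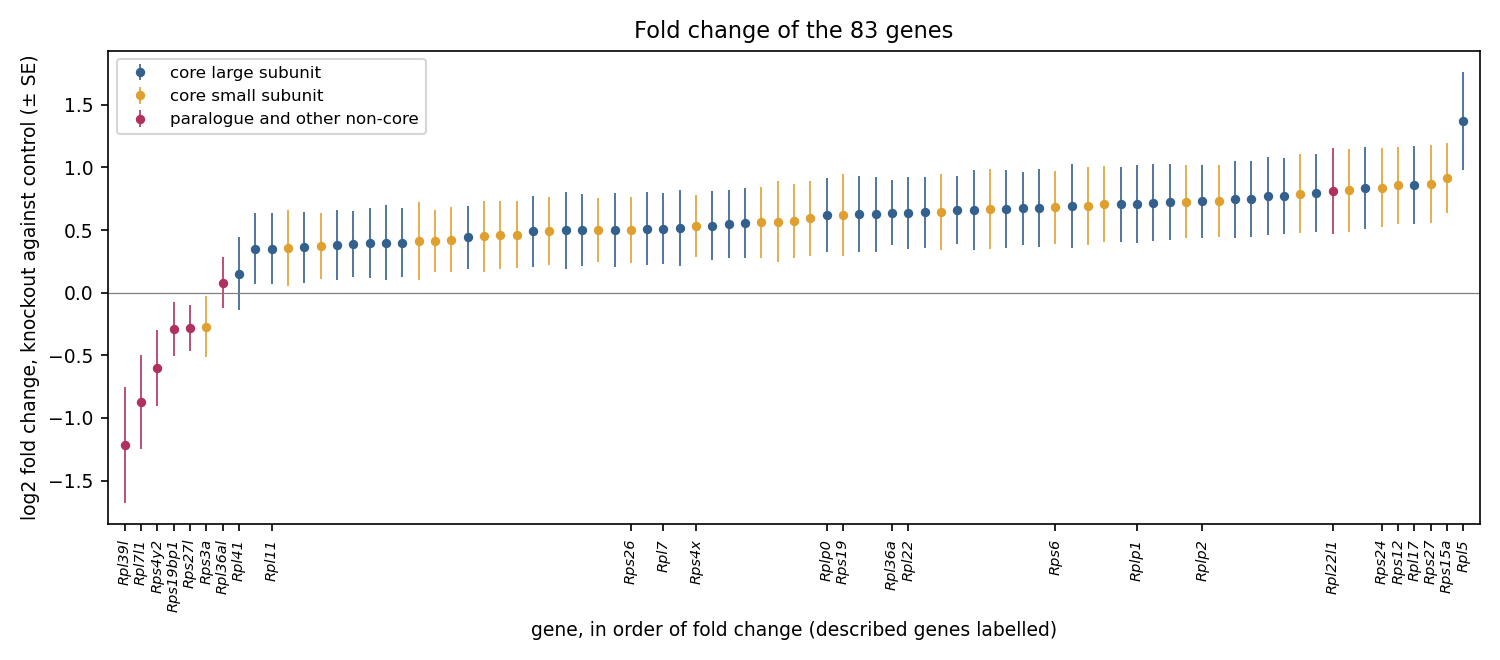
Fitted log2 fold change (knockout over control) of the ribosomal protein genes, with standard errors from the edgeR quasi-likelihood fit and the described genes labelled. Of the 76 core genes, 75 lie between 0.15 and 1.37 and Rps3a at -0.27, and 5 of the 7 other members lie below 0.

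Rpl5, a large subunit protein that binds 5S ribosomal RNA and, when unassembled, the p53 regulator Mdm2, had the largest fold change of the core genes. It stood at 50.5 and 40.8 CPM in knockout 1 and 2 and at 11.1 and 24.2 CPM in control 3 and 8. Both knockout libraries were above both controls, and the controls differed from each other by more than the knockout libraries did. Its log2 fold change was 1.37 with a standard error of 0.39 (edgeR adjusted p 0.354). Its counts were low for a ribosomal protein gene, from 306 to 1576 per library, and its level per kilobase of transcript, 15.5 CPM, was the lowest of the core genes. The gene (chr5:108329521-108338024 on NCBIM37, plus strand) shares 26.7% of its exon bases with other annotated genes, Fam69a and Snord21. All of its 32-base coding stretches occur again elsewhere in the genome, so reads assigned to it are uncertain.

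Rpl11, the partner of Rpl5 in the 5S particle, stood at 1120 and 815 CPM in the knockout libraries and at 655 and 862 CPM in the controls. The groups overlapped, with knockout 2 below control 8. Its log2 fold change of 0.35 (standard error 0.28, edgeR adjusted p 0.542) was among the lower values of the core genes, and without knockout 1 it was 0.10.

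After Rpl5, the smallest p-values belonged to Rps15a, Rps12, Rps27, Rpl17 and Rps24. Rps15a, a small subunit protein that binds 18S ribosomal RNA, stood at 1127 and 840 CPM in knockout 1 and 2 and at 447 and 598 CPM in control 3 and 8. Both knockout libraries lay above both controls, and the log2 fold change was 0.91 with a standard error of 0.28 (edgeR adjusted p 0.362). Rps27, a zinc-finger protein of the small subunit, stood at 794 and 489 CPM against 301 and 402 CPM, with a log2 fold change of 0.87 (standard error 0.31). Again the groups did not overlap, and knockout 1 stood apart from the other 3 libraries.

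Rps12 stood at 2864 and 1901 CPM in the knockout libraries and at 1189 and 1443 CPM in the controls, with a log2 fold change of 0.86. Rps24, a small subunit protein needed to mature the 18S ribosomal RNA, stood at 2156 and 1431 CPM against 863 and 1143 CPM, with a log2 fold change of 0.84. These belong among the most abundant transcripts of the family per length: Rps12 averaged 3577 CPM per kilobase of transcript and Rps24 3222. Rpl17, a protein of the nascent peptide exit tunnel, stood at 1693 and 1107 CPM against 666 and 879 CPM, with a log2 fold change of 0.86. Each of these 3 genes was highest in knockout 1 and lowest in control 3.

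The stalk, which recruits elongation factors to the large subunit, is made of Rplp0 with Rplp1 and Rplp2. Rplp0 stood at 5274 and 3909 CPM in the knockout libraries and at 2841 and 3142 CPM in the controls. Its log2 fold change was 0.62 with a standard error of 0.30, at an edgeR adjusted p of 0.433. Rplp1 stood at 2254 and 1473 CPM against 1018 and 1263 CPM (log2 fold change 0.71). Rplp2 stood at 1286 and 888 CPM against 571 and 739 CPM (log2 fold change 0.73). In all 3 stalk genes the groups did not overlap. Per kilobase Rplp1, at 3035 CPM, and Rplp0, at 2792 CPM, were among the 4 most abundant members with Rps12 and Rps24.

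Rps6, the substrate of the S6 kinases downstream of mTORC1, stood at 1757 and 1274 CPM in the knockout libraries and at 813 and 1075 CPM in the controls. Its groups did not overlap, and the log2 fold change was 0.68 with a standard error of 0.29 (edgeR adjusted p 0.433).

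Genes mutated in Diamond-Blackfan anaemia followed the rest of the family. All 22 of the listed members were measured, edgeR called 0 and DESeq2 the 2 named above, all 22 had a positive log2 fold change, and their median was 0.61 against 0.62 over the core genes. At an unadjusted p below 0.05, 7 of the 22 were higher, where 9.82% of all genes were. Rps19, the gene most often affected in that disease, stood at 1188 CPM in knockout 1 and 696 CPM in knockout 2, against 542 and 685 CPM in the controls. Knockout 2 and control 8 were almost level, and the log2 fold change of 0.62 (standard error 0.33) was 0.18 without knockout 1. Rps26, which contacts mRNA upstream of the start codon, stood at 1054 and 757 CPM against 592 and 687 CPM, with a log2 fold change of 0.50.

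A pair of core genes departed from the others, and both were singled out after their values were seen for their low place in the ranking of fold changes. Rps3a, a small subunit protein, stood at 829 and 670 CPM in the knockout libraries and at 831 and 978 CPM in the controls. It was the only core gene with both knockout libraries below both controls, although knockout 1 and control 3 were nearly equal, and its log2 fold change was -0.27 with a standard error of 0.25 (edgeR adjusted p 0.580). Rpl41, the smallest ribosomal protein, stood at 1811 and 1206 CPM against 1348 and 1367 CPM. Knockout 2 was its lowest library, and its log2 fold change was 0.15, and -0.17 without knockout 1.

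As a set, the paralogues did not share the pattern of the core genes. Their median log2 fold change, with Rps19bp1 included, was -0.29 over the 7 genes, and knockout 1 was the lowest library for 5 of them. Both knockout libraries lay below both controls in those 5, a pattern found in 26.7% of all genes. The 5 include Rpl39l, which entered the table only through the controls. Without it the count was 4 of 6 and the median -0.29. None of the 7 was called by edgeR over all 4 libraries, and the difference between core and non-core genes was not tested.

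Rpl7l1, a nucleolar relative of Rpl7, stood at 35.2 and 77.6 CPM in knockout 1 and 2 and at 96.9 and 110 CPM in control 3 and 8. Rpl7 itself stood at 2255 and 1654 CPM in the knockout libraries and at 1244 and 1499 CPM in the controls. The log2 fold changes had opposite signs, at -0.87 (standard error 0.38) for Rpl7l1 and 0.51 (standard error 0.28) for Rpl7. Per kilobase of transcript, Rpl7l1 amounted to 0.697% of Rpl7 in knockout 1, 2.09% in knockout 2, 3.48% in control 3 and 3.27% in control 8. Without knockout 2 its log2 fold change was -1.56, at an edgeR adjusted p of 0.000592.

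Rps27l, a relative of Rps27 that is known as a p53 target, stood at 78.4 and 91.6 CPM in the knockout libraries and at 103 and 104 CPM in the controls. The groups did not overlap, and the log2 fold change was -0.28 with a standard error of 0.18, against 0.87 for Rps27. Per kilobase Rps27l amounted to 6.83% and 13.0% of Rps27 in knockout 1 and 2 and to 23.6% and 17.8% in control 3 and 8. Both stretches printed above hold a 9-base run of C and T. That of Rps27l lies upstream of the annotated start, as do the runs of the core genes Rpl5 and Rps15a. At the second annotated start of Rps27l the longest run was 5 bases.

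Rps4y2, on chromosome 6 in the mouse, stood at 11.9 and 19.7 CPM in the knockout libraries and at 22.0 and 25.9 CPM in the controls. Its partner Rps4x, the X-linked gene, stood at 1033 and 824 CPM against 585 and 698 CPM. The log2 fold changes were -0.60 (standard error 0.30) for Rps4y2 and 0.53 (standard error 0.25) for Rps4x, with no overlap of the groups for either gene. The coding sequences are 79.8% identical, and their longest shared run is 35 bases, so some reads could be split between them.

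Alone among the paralogues, Rpl22l1 ranked the libraries as most core genes did. It stood at 409 and 235 CPM in knockout 1 and 2 and at 147 and 221 CPM in control 3 and 8, in the same order as its partner Rpl22, which stood at 696 and 460 CPM against 328 and 415 CPM. Its log2 fold change was 0.81 (standard error 0.34, edgeR adjusted p 0.433), and that of Rpl22 was 0.64. Per kilobase it amounted to 57.0% and 49.6% of Rpl22 in the knockout libraries and 43.6% and 51.5% in the controls, which overlap.

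Rpl36al, whose coding sequence is 87.9% identical to that of Rpl36a, stood at 249 and 205 CPM in the knockout libraries and at 205 and 225 CPM in the controls. Knockout 1 was its highest library, as for the core genes, and knockout 2 and control 3 were level. The log2 fold change was 0.08, and -0.07 without knockout 1. Rpl36a stood at 751 and 563 CPM against 374 and 471 CPM, with a log2 fold change of 0.64.

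Rpl39l and Rps19bp1 were the other members lower in both knockout libraries. Rpl39l had 11 and 25 counts in knockout 1 and 2 and 34 and 54 counts in control 3 and 8, or 0.359 and 0.648 CPM against 1.23 and 1.14 CPM. Every gene of the table exceeded 1 CPM in at least 2 libraries, and Rpl39l did so only in the controls, so it entered the table through the group in which it was higher and no weight can be put on its fold change. Rps19bp1 stood at 14.6 and 15.4 CPM against 17.3 and 19.3 CPM, with a log2 fold change of -0.29 (standard error 0.22).

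**Figure D4:**
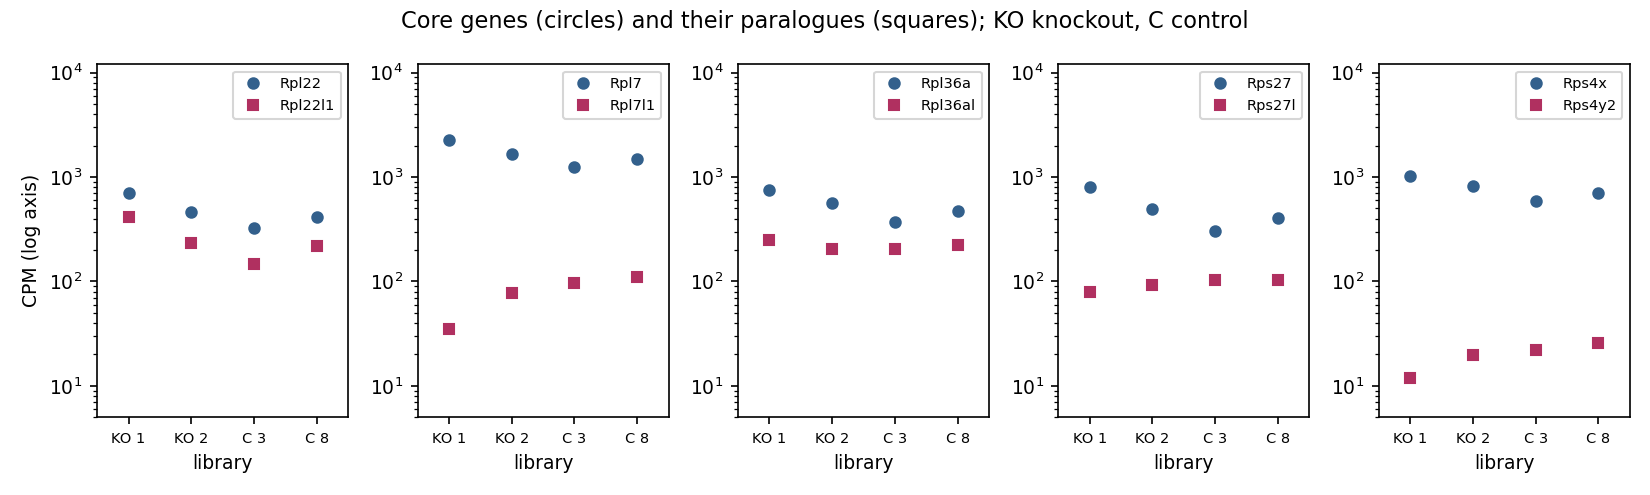
Level (CPM, log axis) of core genes (circles) and their paralogues (squares) in the 4 libraries. Rpl7l1, Rps27l and Rps4y2 were lowest in knockout 1 where their partners were highest, while Rpl22l1 ranked the libraries as Rpl22 did.

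Ribosomal protein genes have many processed copies in the genome, and how the counting treated reads that match several places is not given in the sources used here. Over the 75 core genes with an annotated coding sequence on NCBIM37, the median share of 32-base coding stretches with another exact copy in the genome was 96.3%, and in 30 genes it was every stretch. In 6 core genes it was below 60%, among them Rpl4, Rpl22 and Rps3, and their log2 fold changes ran from 0.35 to 0.67 with a median of 0.54. The median of the other 69 was 0.62. Across these 75 genes, which share libraries and are not independent, Spearman's rho of the fold change was 0.07 with the share of copied stretches, 0.02 with mean CPM and -0.32 with coding length. The positive fold change was thus also seen in the genes with the most stretches found once.

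Promoters of the core genes were searched for 3 motifs on both strands, in windows of 250 bases before to 50 after each RefSeq start. The ETS-type motif CCGGAAG was in 35.4% of the 65 core windows and in 8.86% of all 32851. The YY1-type motif AAGATGG was in 16.9% of core windows and 6.34% of all. The TATA motif TATAAA was in 7.69% of core windows and 13.6% of all. Of the 7 non-core windows 28.6% held CCGGAAG, 14.3% AAGATGG and 14.3% TATAAA. These counts describe letters in a window, and binding was not measured.

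Ribosomal proteins with other symbols had values near those of the core genes. Fau, which encodes a small subunit protein fused to a ubiquitin-like protein, stood at 796 and 489 CPM in the knockout libraries and at 383 and 471 CPM in the controls. Gnb2l1, which encodes the small subunit scaffold RACK1, stood at 1016 and 681 CPM against 544 and 643 CPM. In both genes the groups did not overlap, with knockout 2 close above control 8. The log2 fold changes were 0.59 for Fau (standard error 0.30) and 0.52 for Gnb2l1 (standard error 0.28), and neither was called by edgeR or DESeq2 or had an unadjusted edgeR p below 0.05.

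Other genes with TOP mRNAs, mostly elongation and initiation factors, had smaller values. Of 21 measured, 0 were called by edgeR or DESeq2. At an unadjusted edgeR p below 0.05, 1 was higher, where 9.82% of all genes were. A positive log2 fold change was found in 17 of the 21, where 50% of all genes had one. The median was 0.31, against 0.62 for core ribosomal protein genes and a median within 0.01 of 0 for all genes. Snhg1, a snoRNA host gene, had the highest log2 fold change of the 21, 0.96, and stood at 349 and 159 CPM in the knockout libraries and at 127 and 134 CPM in the controls. Eif3f, a subunit of initiation factor eIF3, had a log2 fold change of 0.64, while Eif3l of the same complex had -0.17 and the elongation factor subunit Eef1d -0.18.

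Among 17 measured genes of mTORC1 and its regulators, 0 were called by edgeR, and the median log2 fold change was -0.06. At an unadjusted edgeR p below 0.05, 5 were higher, where 9.82% of all genes were. The 5 include Ddit4, at 61.1 and 8.29 CPM in knockout 1 and 2 and 0.399 and 0.972 CPM in control 3 and 8. Ddit4 is in the table through the knockout libraries, where it was higher, so it carries no weight in any count of this list. Sesn2, a leucine sensor that restrains mTORC1, stood at 55.4 and 61.7 CPM in the knockout libraries and averaged 16.7 ± 2.47 CPM in the controls (SD, n = 2). Its log2 fold change was 1.81 with a standard error of 0.22 (edgeR adjusted p 0.0764). Eif4ebp1, a translation repressor that mTORC1 inactivates, stood at 119 and 69.8 CPM against 21.9 and 31.6 CPM. Its log2 fold change was 1.82 (standard error 0.33, edgeR adjusted p 0.187). DESeq2 called 4 of the 17 higher (3.29% of all genes), and the likelihood ratio test called 3 (3.09% of all genes). Without knockout 1 edgeR called 3 higher (1.29% of all genes), and without control 3 it called 1 higher (0.373% of all genes). Without knockout 2 it called 5 higher and 2 lower, where 17.3% and 15.3% of all genes were. Mlst8, at -0.46, and Rptor, at -0.39, both mTORC1 subunits, had negative log2 fold changes.

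Chaperones of ribosomal proteins and factors of subunit export and maturation did not follow the core genes. Of 16 measured, 0 were called by edgeR or DESeq2. At an unadjusted edgeR p below 0.05, 1 was lower, where 2.08% of all genes were. A negative log2 fold change was found in 12 of the 16, where 50% of all genes had one, and the median was -0.16. Mrto4, a large subunit assembly factor, stood at 41.7 and 50.9 CPM in the knockout libraries and at 63.2 and 73.2 CPM in the controls (log2 fold change -0.56). Heatr3, which carries Rpl5 into the nucleus, had a log2 fold change of -0.75. Sbds, which helps free the large subunit for translation, had 0.29 and the small subunit endonuclease Nob1 0.21. Without knockout 2 edgeR called 4 of the 16 lower, where 15.3% of all genes were, and 0 higher, where 17.3% were.

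The mitochondrial ribosome provided the nearest like family. Of its 74 measured protein genes, 0 were called by edgeR or DESeq2. At an unadjusted edgeR p below 0.05, 1 was higher (1.35%, where 9.82% of all genes were) and 3 were lower (4.05%, where 2.08% were). A negative log2 fold change was found in 56 of the 74, where 50% of all genes had one, and the median was -0.19. Both knockout libraries lay below both controls in 38 of the 74, or 51.4%, where 26.7% of all genes did. Mrps7 stood at 35.0 and 43.6 CPM in the knockout libraries and at 53.6 and 60.9 CPM in the controls (log2 fold change -0.54). Without knockout 2, 3 were called higher (4.05%, where 17.3% of all genes were) and 20 lower (27.03%, where 15.3% of all genes were).

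**Figure D5:**
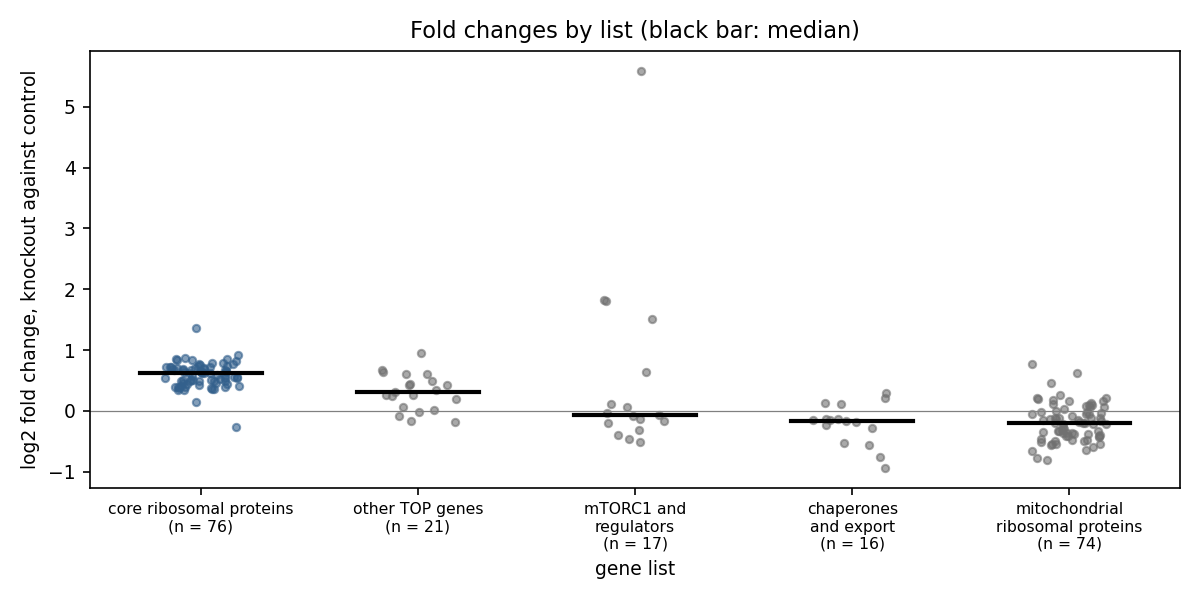
Fitted log2 fold changes (knockout over control) of the core ribosomal protein genes and of 4 related gene lists, with the median of each list. Core ribosomal protein genes had a median of 0.62, other TOP genes 0.31, mTORC1 genes -0.06, chaperone and export genes -0.16 and mitochondrial ribosomal protein genes -0.19.

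Knockout 1, the library with the highest ribosomal protein share, also stood apart in several marker genes. Klf1, an erythroid transcription factor, stood at 204 CPM in knockout 1, 520 in knockout 2, 689 in control 3 and 533 in control 8. The 7 measured neutrophil markers of 9 summed to 305 CPM in knockout 1 and to 37.3 to 45.3 CPM in the other libraries. The 6 measured megakaryocyte markers of 7 summed to 154 and 85.2 CPM in knockout 1 and 2 and to 44.1 and 71.6 CPM in control 3 and 8. The 3 measured progenitor markers of 7 summed to 132 CPM in knockout 1 and to 76.6 to 82.6 CPM in the others. Macrophage markers (8 of 10 measured) summed to 8.35 and 18.2 CPM in the knockout libraries and to 44.4 and 20.8 CPM in the controls, and hepatoblast markers (7 of 8) to 58.3 and 68.6 CPM against 125 and 49.5 CPM. With edgeR 0 genes of these lists were called over the 4 libraries, where 0.103% of all genes were called higher and 0% lower. At an unadjusted edgeR p below 0.05, 2 of 6 megakaryocyte markers were higher, where 9.82% of all genes were. On the same measure 5 of 8 macrophage markers were lower, where 2.08% of all genes were. DESeq2 called 1 macrophage marker lower, where it called 0.196% of all genes lower. It called 1 megakaryocyte marker higher, where it called 3.29% of all genes higher. The macrophage markers Vcam1 (0.555 and 0.492 CPM in knockout 1 and 2) and C1qa (0.196 and 0.803 CPM) exceeded 1 CPM only in the controls. Both entered the table through the group in which they were higher, so no weight can be put on the macrophage counts. The part of these marker lists in the differences among ribosomal protein genes was not tested.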

How the data were processed

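The authors deposited raw counts per gene for 4 RNA libraries, and per the file headers a comparison table that gives every gene a p-value, raw and adjusted. HTSeq and BWA 0.6.2, SAMtools 0.1.19, TopHat2 2.0.8 with Bowtie2 2.1.0.0, and Trimmomatic 0.30 are listed, without roles, in the submitters' processing notes, as are the builds mm9 and NCBIM37. Strand and the treatment of reads with several matches are not given in the sources used here.

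Libraries were grouped by their titles. All 10716 genes were fitted in edgeR 4.0.16 under R 4.3.3 (filterByExpr, which removed 0 genes, TMM, estimateDisp, glmQLFit with robust=TRUE and legacy=TRUE, two-sided quasi-likelihood F test, Benjamini-Hochberg over all genes, threshold 0.05), leaving 2 residual degrees of freedom. The common biological coefficient of variation was 25.6%. The script was tested on simulated data. A standard error is the absolute log2 fold change over the square root of F. Levels relative to the control mean used log2 CPM (prior count 2). DESeq2 1.42.0, limma-voom (limma 3.58.1) and other scalings, filters and left-out libraries were alternatives.

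The members, gene lists and naming rule were chosen with earlier results of these data known. Named were Adar, the 6 members with the smallest p in each direction, the 4 highest and lowest per kilobase, stalk and 5S proteins, Rps6, Rps19, Rps26, paralogues with partners, and from each other list up to 2 genes per direction. Positions of genes, lengths (lowest-numbered coding transcript) and copies of coding stretches are from GENCODE on NCBIM37, and promoters are from RefSeq. The identifier of Rpl41 was not matched there, so no length is given for it. Of the 83 members 61 were found in the promoter table. Values of some single genes are not reported here.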

Additional observations from a re-analysis of the deposited data

How the results depend on the processing

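No paired analysis was possible because the groups share no replicate number (1 and 2 against 3 and 8). The alternatives were 3 other scalings and no scaling, 2 other filters, 5 other tests or options and sex as labelled. Over these the medians of large and small subunit members kept their direction. The alternative without a filter repeated the main fit, since the main filter removed 0 genes. Sex as labelled used labels that the counts of Y-linked genes went against in 3 of the 4 libraries. The count of members called higher, 0 with edgeR, was 2 under DESeq2 and 1 under edgeR's likelihood ratio test, and the cause was not tested. Leaving out each library in turn, the count called higher ran from 0 to 24 and the count called lower from 0 to 3, the upper values without knockout 2. The median log2 fold change of large subunit members ran from 0.28 to 0.82, that of small subunit members from 0.27 to 0.79, and that of all members from 0.28 to 0.82. The difference of large and small subunit medians ran from 0.013 to 0.064, and the log2 ratio of the summed shares from 0.26 to 0.75. The fold change of Rpl36al ran from -0.065 to 0.20 and that of Nob1 from -0.053 to 0.44, with the negative value without knockout 1 in both. With TMM-scaled libraries, an alternative added after seeing the data, the log2 ratio of the summed shares was 0.58. The controls differed from each other in the same direction for all 76 core genes, which limits what 2 libraries a group can resolve. A level near 1 CPM, as for Rpl39l, rests on few counts. Rpl39l is also among those called lower without knockout 2, although it is in the table only through the controls.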
